A study of Homo sapiens with 6 samples.

Results

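The insulin-like growth factor (IGF) axis was described in human cells in which the long noncoding RNA HOTAIR had been knocked down. The set holds 10 genes chosen by symbol, namely the ligand gene IGF2, the receptors IGF1R, INSR and IGF2R, the adaptor IRS1 and the binding proteins IGFBP2 to IGFBP6. Of these, 8 were matched among the 19589 features of the deposited table, and IGF2 and IGFBP2 were not analysed here. The set was proposed with the fold changes of this comparison known, so these fold changes and p-values are given as a description and support nothing beyond the listed genes.

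One group of cells was given a small interfering RNA that targets HOTAIR (siHOTAIR), and the other cells a negative control small interfering RNA (siNC). Both groups were labelled HepG2, a cell line from a human liver tumour, and both were grown in high-glucose medium with fetal bovine serum. The labels give 3 libraries per group, made by a stranded protocol from total RNA after depletion of ribosomal RNA, and they do not say whether the 3 were separate cultures, so the spread may be technical. No time after transfection and no siRNA sequence are given in the sources used here.

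The deposited table gives 1 mean, 1 log2 fold change and 1 p-value per gene and no value per library. Because each mean is a sum of whole reads, each weighted by its library's size factor, the reads of every library could be worked back exactly for genes of moderate abundance. The means were found to hold 5 libraries, 3 of siHOTAIR and 2 of siNC, so 1 library labelled siNC does not enter them. The 5 libraries are called siHOTAIR A, B and C and siNC A and B here, since their replicate numbers are not recoverable. Reads were recovered for 19001 of 19036 features with a mean up to 3000, including all 8 measured genes of the axis, and summed to between 4859418 and 6344565 in siHOTAIR libraries and to 6378526 and 4868751 in siNC libraries. Values below are normalized counts, which are reads divided by the library's size factor (0.8877 to 1.1544 in siHOTAIR, 1.1944 and 0.8925 in siNC), and errors are SD over 3 siHOTAIR and 2 siNC libraries.

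The label HepG2 was set against hepatocyte markers. Of 8 listed markers, 4 were matched, and their summed level was 2.60, 7.49 and 7.89 normalized counts in siHOTAIR libraries and 5.02 and 6.72 in siNC libraries. APOA1, SERPINA1 and TF had at most 10 reads each over the 5 libraries, and HNF4A at most 7 in any library, so these 4 liver transcripts stood near 0 and go against the label. ALB, AFP, APOB and TTR, the other 4, were not analysed here. The targeted RNA followed its label: HOTAIR had 62.4, 78.2 and 59.7 normalized counts in siHOTAIR libraries, against 202 and 150 in siNC libraries. The authors' deposited table, made with DESeq2, lists HOTAIR at a log2 value of -1.37 ± 0.197 (fold change of siHOTAIR over siNC ± SE), with an adjusted p of 5.60e-11.

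As background, IGF1 and IGF2 are secreted hormones that bind the receptor tyrosine kinase IGF1R, and insulin and IGF2 bind its close relative INSR. Activated receptors phosphorylate IRS adaptors, which pass the signal to PI3-kinase and AKT. IGF2R carries IGF2 to lysosomes and has no kinase domain, and the secreted binding proteins hold IGFs in the extracellular space, where they prolong their life or keep them from the receptor. In the healthy liver, hepatocytes secrete most of the circulating IGF1 and much of the IGFBP1, while in rat liver IGFBP3 comes from the non-parenchymal cells.

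The windows upstream of the start sites of the 4 genes that the results turn on are shown here, since these genes moved in both directions. Each window holds the 250 bases before the annotated start, 5′ to 3′ on the gene's strand, from RefSeq on GRCh38.p14. Capitals mark matches on either strand to the TATA box TATAAA, the GC box GGGCGG, the AP-1 site TGANTCA, the FOXO site GTAAACA or the E-box CACGTG, and no marked matches overlapped in these 4 windows.
IGFBP4, chr17:40443200-40443449, + strand: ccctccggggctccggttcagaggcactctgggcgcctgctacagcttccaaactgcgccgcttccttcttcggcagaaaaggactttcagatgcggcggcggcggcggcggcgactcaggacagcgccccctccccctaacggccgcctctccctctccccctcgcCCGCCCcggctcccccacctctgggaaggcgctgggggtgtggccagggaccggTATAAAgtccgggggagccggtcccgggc
IGFBP6, chr12:53097417-53097666, + strand: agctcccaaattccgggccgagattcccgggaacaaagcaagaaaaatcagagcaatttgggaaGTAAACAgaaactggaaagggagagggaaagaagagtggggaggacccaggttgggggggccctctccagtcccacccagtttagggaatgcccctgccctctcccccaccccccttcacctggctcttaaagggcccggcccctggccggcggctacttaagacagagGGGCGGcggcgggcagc
IGF1R, chr15:98648289-98648538, + strand: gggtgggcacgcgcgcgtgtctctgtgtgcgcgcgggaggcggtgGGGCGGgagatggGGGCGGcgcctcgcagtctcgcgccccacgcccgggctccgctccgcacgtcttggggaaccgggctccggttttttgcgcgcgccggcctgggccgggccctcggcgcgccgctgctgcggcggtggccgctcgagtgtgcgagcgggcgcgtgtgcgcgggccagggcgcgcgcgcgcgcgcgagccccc
IGFBP3, chr7:45921273-45921522, - strand: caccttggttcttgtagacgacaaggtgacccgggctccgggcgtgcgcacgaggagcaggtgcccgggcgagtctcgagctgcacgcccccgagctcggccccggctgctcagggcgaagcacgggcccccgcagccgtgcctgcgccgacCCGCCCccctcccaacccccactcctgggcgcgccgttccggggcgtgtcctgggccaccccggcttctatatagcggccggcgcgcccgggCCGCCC

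The 4 windows differed in the letters they held. The IGFBP4 window had a TATA box that begins 29 bases before the start and a GC box that begins 83 bases before it, and TATAAA stood in 10.7% of 35116 RefSeq windows of this length. The IGFBP6 window had a FOXO site at 186 bases and a GC box at 17 bases before the start, where 2.98% and 42.6% of all windows held these letters. The IGF1R window had GC boxes at 205 and 192 bases, and the IGFBP3 window had them at 98 and 6 bases before the start. GC content was 71.6% for IGFBP4, 61.2% for IGFBP6, 81.2% for IGF1R and 76.0% for IGFBP3. None of the 4 windows held the AP-1 letters, which stood in 6.57% of all windows, or the E-box, which stood in 6.34%. These matches describe letters in a reference sequence, and no binding was measured.

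Related members shared only short runs of identical coding bases, which bears on how far reads can be told apart, and no source used here gives the read length. The longest run of identical bases between the coding sequences of IGF1R and INSR was 23 bases, and that between IGFBP3 and IGFBP4 was 17 bases. IGFBP3 and IGFBP5 shared 21 bases, the longest run among the measured binding protein members. Untranslated exon bases were not compared. The runs of IGF1R with INSR and of IGFBP3 with IGFBP4 are shown 5′ to 3′, in lower case throughout, from GENCODE 29 transcripts.
IGF1R and INSR: ttccccaacctcacggtcatccg
IGFBP3 and IGFBP4: gagccgggctgcggctg

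Across the 8 measured genes, the authors' deposited table held 3 that rose at an adjusted p under 0.05 (IGF1R, IGFBP4, IGFBP6), 1 that fell (IGFBP3) and 4 that did not pass (INSR, IGF2R, IRS1, IGFBP5). Over all 14597 features with an adjusted p in that table, 40.4% passed, 20.0% higher and 20.4% lower in siHOTAIR cells, so a call was common. The median log2 fold change was 0.36 for the 8 genes and 0.007 for all tested features. In the recovered libraries all siHOTAIR values lay above all siNC values for 6 of the 8 genes and below them for IGFBP3, and the groups overlapped for IRS1. Of 14137 features with an adjusted p and recovered reads, 62.8% had groups that did not overlap, 30.6% with siHOTAIR higher and 32.2% with siHOTAIR lower. IGFBP4 alone among the 8 carried the authors' word Up. That word stood at 1.64% of all 19589 features, a base that includes features without an adjusted p. In such bulk libraries a change in the share of one kind of cell and a change in RNA per cell cannot be told apart.

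**Figure D1:**
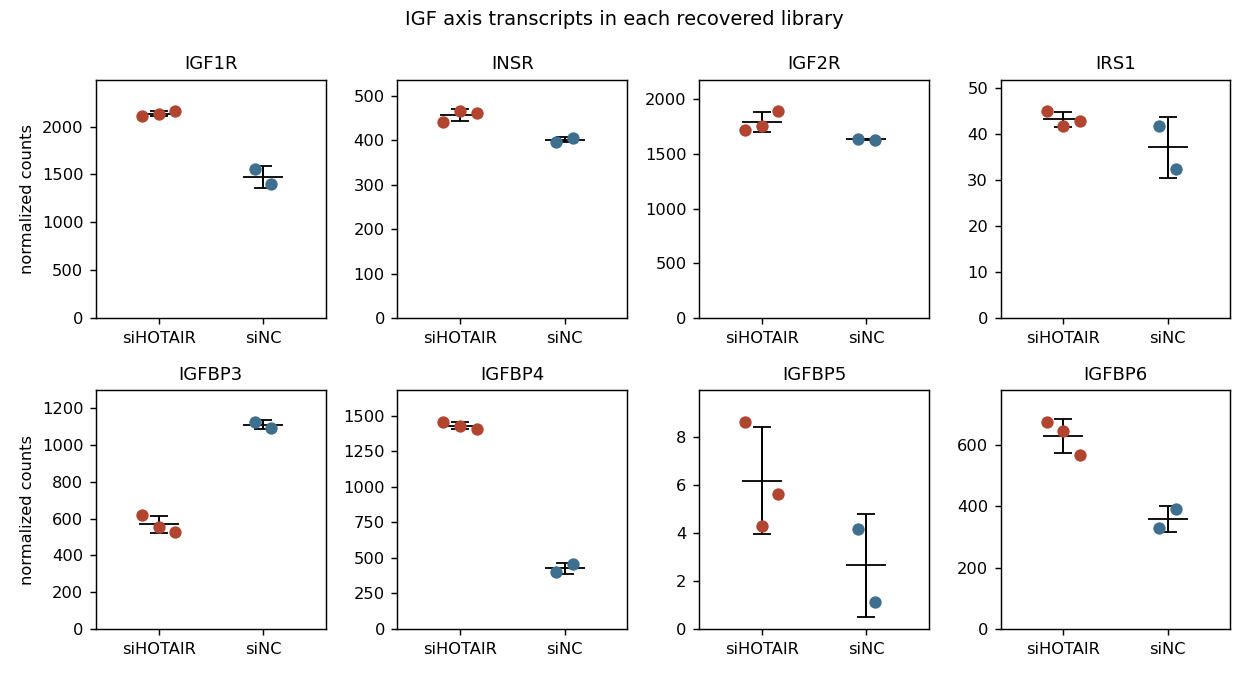
Normalized counts (vertical axes, starting at 0) of the 8 measured IGF axis genes in each recovered library, with 3 siHOTAIR libraries in red at the left and 2 siNC libraries in blue at the right of each panel; black lines give the mean and 1 SD. The siHOTAIR points lie above the siNC points in 6 panels, below them for IGFBP3 and overlap with them for IRS1.

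The receptors differed in size of change, with IGF1R rising and with INSR and IGF2R not passing the test. IGF1R, the signalling receptor for both IGFs, had 2110, 2134 and 2164 normalized counts in siHOTAIR libraries, against 1557 and 1397 in siNC libraries. The siHOTAIR values lay close together and well above both siNC values, with means of 2136 ± 27.0 and 1477 ± 113 and a ratio of means of 1.45. Its log2 fold change was 0.53 ± 0.0721 (SE) in the authors' deposited table, with an adjusted p of 4.94e-12.

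INSR, the insulin receptor, had 440, 466 and 462 normalized counts in siHOTAIR libraries, against 397 and 406 in siNC libraries. Every siHOTAIR value was above every siNC value, but the difference was small beside that of IGF1R, with means of 456 ± 13.8 and 401 ± 6.18. INSR did not pass in the authors' deposited table, where its log2 fold change was 0.18 ± 0.104 (SE) with an adjusted p of 0.154. IGF2R, the clearance receptor for IGF2, had 1715, 1757 and 1891 normalized counts in siHOTAIR libraries and 1633 and 1629 in siNC libraries. The siNC values of IGF2R were almost equal, and siHOTAIR A exceeded them by little. IGF2R did not pass either, and the authors' deposited table has it at a log2 fold change of 0.13 ± 0.0719 (SE) and an adjusted p of 0.139.

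Receptor ratios within a library, which do not depend on the scaling between libraries, showed the same order of change. There were 4.80, 4.58 and 4.68 IGF1R reads per INSR read in siHOTAIR libraries, against 3.92 and 3.44 in siNC libraries. IGF1R reads outnumbered IGF2R reads in every siHOTAIR library (1.23, 1.22 and 1.14 to 1) and were the fewer in both siNC libraries (0.953 and 0.858 to 1). By contrast, the ratio of IGF2R to INSR reads averaged 3.92 ± 0.163 in siHOTAIR and 4.07 ± 0.0703 in siNC libraries, and the groups overlapped. The ratio of IGF1R to INSR was thus 1.27-fold higher in siHOTAIR cells and that to IGF2R 1.32-fold higher, neither of which was tested.

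IRS1, the adaptor that links IGF1R and INSR to PI3-kinase, was low and did not separate the groups. It had 52, 39 and 38 reads in siHOTAIR libraries and 50 and 29 reads in siNC libraries. After normalization these were 45.0, 41.8 and 42.8 counts in siHOTAIR and 41.9 and 32.5 in siNC, so siNC A lay within the siHOTAIR range. For IRS1 the estimate of 0.19 (log2 fold change) was smaller than its SE of 0.285 in the authors' deposited table, where its adjusted p was 0.640.

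Its relative IRS2, which is listed with the adaptors and is no member of the set, was the more abundant of the pair. IRS2 had 1135, 1083 and 1221 normalized counts in siHOTAIR libraries, against 882 and 816 in siNC libraries, and it rose in the authors' deposited table (0.43 ± 0.0840 on the log2 scale, adjusted p = 2.74e-06). Each IRS1 read came with 25.2, 25.9 and 28.5 IRS2 reads in siHOTAIR libraries and with 21.1 and 25.1 in siNC libraries. The IRS2 to IRS1 ratio of siNC B thus lay just below that of siHOTAIR A.

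The binding proteins moved the most and in both directions: IGFBP4 and IGFBP6 rose, IGFBP3 fell, and IGFBP5 stood near the limit of detection. Their median log2 fold change over the 4 measured members was 0.76. IGFBP4, which binds both IGFs and is cut by the protease PAPPA to release them, had 1461, 1426 and 1410 normalized counts in siHOTAIR libraries, against 400 and 456 in siNC libraries. The lowest siHOTAIR value of IGFBP4 was more than 3 times the highest siNC value, and the means were 1432 ± 25.7 and 428 ± 39.5. IGFBP4 changed the most of the 8 genes in the authors' deposited table, by a log2 fold change of 1.74 ± 0.0873 (SE) at an adjusted p of 2.61e-85.

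IGFBP6, which binds IGF2 in preference to IGF1, had 677, 644 and 568 normalized counts in siHOTAIR libraries, against 329 and 390 in siNC libraries. The groups did not overlap, and the spread within each was wider for IGFBP6 than for IGFBP4, with means of 630 ± 55.9 and 359 ± 43.1. This is a 1.75-fold rise, and the authors' deposited table holds IGFBP6 at a log2 fold change of 0.81 ± 0.111 (SE), with an adjusted p of 4.91e-12.

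IGFBP3, the main carrier of IGFs in blood, went the other way. It had 619, 557 and 528 normalized counts in siHOTAIR libraries, against 1128 and 1094 in siNC libraries. Mean IGFBP3 in siHOTAIR cells was 51.2% of that in siNC cells (568 ± 46.6 and 1111 ± 24.2), with every siHOTAIR library below both siNC libraries. Its log2 fold change in the authors' deposited table was -0.96 ± 0.0900 (SE), at an adjusted p of 1.11e-24. That table's fold of 1.94 lies just under the 2-fold at which the authors' words Up and Down begin, and IGFBP3 carries neither word.

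IGFBP5, a binding protein known for its place in the extracellular matrix, was represented by few reads. There were 10, 4 and 5 IGFBP5 reads in siHOTAIR libraries and 5 and 1 reads in siNC libraries. Normalized counts of 8.66, 4.28 and 5.63 in siHOTAIR and of 4.19 and 1.12 in siNC did not overlap, by a margin under 1 read between siHOTAIR B and siNC A. IGFBP5 did not pass in the authors' deposited table (0.70 ± 0.582 on the log2 scale, adjusted p = 0.358), and a difference was not detectable at this depth. An antisense gene, AC007563.2, shares 298 exon bases with IGFBP5 on the opposite strand, and the sources used here do not say whether the counting used strand.

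**Figure D2:**
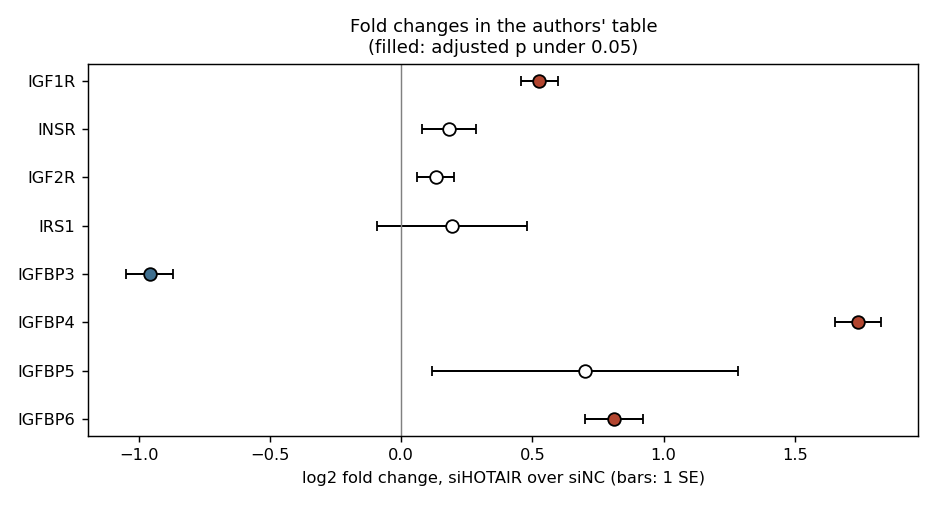
Log2 fold changes of siHOTAIR over siNC (horizontal axis) in the authors' deposited table for the 8 measured genes, with bars of 1 SE; filled points passed an adjusted p under 0.05, red for higher and blue for lower in siHOTAIR. IGFBP4 at 1.74 and IGFBP3 at -0.96 are the 2 ends, and the open points of IRS1 and IGFBP5 have the widest bars.

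The binding proteins were also compared within each library, where scaling between libraries plays no part. There were 2.36, 2.56 and 2.67 IGFBP4 reads per IGFBP3 read in siHOTAIR libraries, against 0.355 and 0.417 in siNC libraries, a 6.56-fold difference of mean ratios. IGFBP4 was thus the more counted of the pair in every siHOTAIR library and IGFBP3 in both siNC libraries. IGFBP6 reads likewise exceeded IGFBP3 reads in all siHOTAIR libraries (1.09, 1.16 and 1.08 to 1) and were the fewer in siNC libraries (0.292 and 0.357 to 1). IGFBP4 exceeded IGFBP6 in all 5 libraries, by 2.28 ± 0.174 to 1 in siHOTAIR and 1.19 ± 0.0331 to 1 in siNC. The rise of IGFBP4 was in this measure 1.92-fold greater than that of IGFBP6. These ratios are descriptions of 5 libraries and were not tested.

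**Figure D3:**
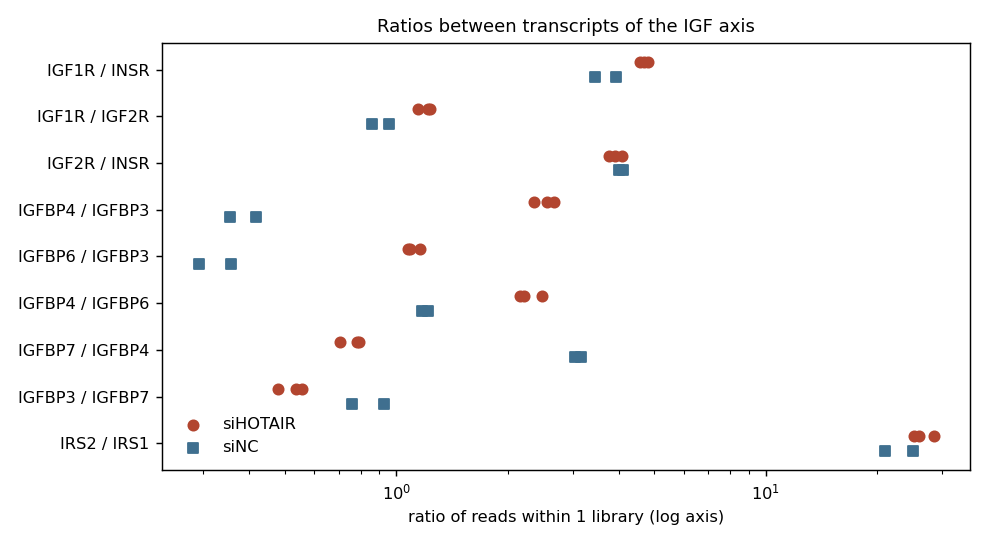
Ratios of the reads of 2 genes within 1 library (horizontal log axis), with 3 siHOTAIR libraries as red circles above 2 siNC libraries as blue squares for each pair. The ratio of IGFBP4 to IGFBP3 lies between 2.36 and 2.67 in siHOTAIR and at 0.355 and 0.417 in siNC, while that of IGF2R to INSR overlaps between the groups.

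Levels of different genes were compared per kilobase of the longest principal transcript of each gene in GENCODE 29. In siHOTAIR cells the order of levels was IGFBP4 with 651 ± 11.7 normalized counts per kilobase, IGFBP6 with 539 ± 47.8, IGFBP3 with 251 ± 20.6, IGF1R with 175 ± 2.21, IGF2R with 127 ± 6.56, INSR with 96.6 ± 2.93, IRS1 with 4.45 ± 0.173 and IGFBP5 with 0.996 ± 0.361. In siNC cells IGFBP3 led with 491 ± 10.7 normalized counts per kilobase, before IGFBP6 with 307 ± 36.8, IGFBP4 with 195 ± 17.9, IGF1R with 121 ± 9.25, IGF2R with 116 ± 0.218, INSR with 85.0 ± 1.31, IRS1 with 3.83 ± 0.683 and IGFBP5 with 0.427 ± 0.349. Neighbours in these orders had separate ranges, except IGF1R and IGF2R in siNC libraries, where IGF1R at 127 and 114 per kilobase lay on both sides of IGF2R at 116 in both. IGFBP4 and IGFBP3 thus exchanged the first and the third place. The order of the receptors' group means was the same in both groups, but in siNC B IGF1R lay below IGF2R.

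The order at the top depends on the length used. With all annotated exon bases of a gene in place of 1 transcript, the level of IGFBP3 was 124 per kilobase in siHOTAIR, under IGF1R at 153, and 243 in siNC, under IGFBP6 at 267. Among the measured genes of the axis, IGFBP4 was first in siHOTAIR at 651 per kilobase with either length. In siNC it was behind IGFBP3 and IGFBP6 at 195 per kilobase with either length.

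IGFBP7, a relative that binds IGFs weakly, is not among the 10 genes. Per kilobase of the principal transcript it had the highest level of the binding proteins in every siHOTAIR and siNC library. With all annotated exon bases as the length, its mean was 563 in siHOTAIR, under IGFBP4 at 651, and still the highest in siNC at 690. It had 1157, 1001 and 1104 normalized counts in siHOTAIR libraries, against 1219 and 1445 in siNC libraries. IGFBP7 stood at a log2 fold change of -0.29 ± 0.0897 (SE) in the authors' deposited table, at an adjusted p of 0.00483. A limma fit to the recovered reads gave adjusted p-values of 0.0820 without siHOTAIR B and 0.194 without siNC B, so its call depends on each of these 2 libraries. In the list of other ligands, receptors and binding proteins IGFBP7 was the 1 of 3 tested genes that passed. The share that passed among all tested features was 40.4%. IGFBP1, the binding protein that insulin represses in the liver, had 5, 2 and 3 reads in siHOTAIR libraries and 5 and 3 reads in siNC libraries.

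The make-up of the binding protein transcripts was different in the 2 groups. Of the summed level per kilobase of IGFBP1 and IGFBP3 to IGFBP7, IGFBP4 made up 28.5%, 30.2% and 30.0% in siHOTAIR libraries, against 10.0% and 10.2% in siNC libraries. IGFBP3 made up 11.7%, 11.5% and 10.9% in siHOTAIR libraries, against 27.4% and 23.7% in siNC libraries. IGFBP4 thus held the larger share of the pair in every siHOTAIR library and IGFBP3 in both siNC libraries. IGFBP6 averaged 24.4% ± 1.51 in siHOTAIR and 15.9% ± 0.626 in siNC, and IGFBP7 averaged 34.5% ± 1.79 in siHOTAIR and 48.3% ± 1.92 in siNC. The summed level itself was 2331, 2149 and 2137 normalized counts per kilobase in siHOTAIR libraries and 1819 and 2039 in siNC libraries, with means of 2206 ± 109 in siHOTAIR and 1929 ± 156 in siNC. With all annotated exon bases as the length, IGFBP4 held 36.0% ± 1.01 in siHOTAIR and 13.9% ± 0.0198 in siNC, and IGFBP3 held 6.86% ± 0.261 in siHOTAIR and 17.5% ± 1.96 in siNC. Shares of 1 total are not independent of each other, so a rise of 1 gene lowers the shares of the rest.

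**Figure D4:**
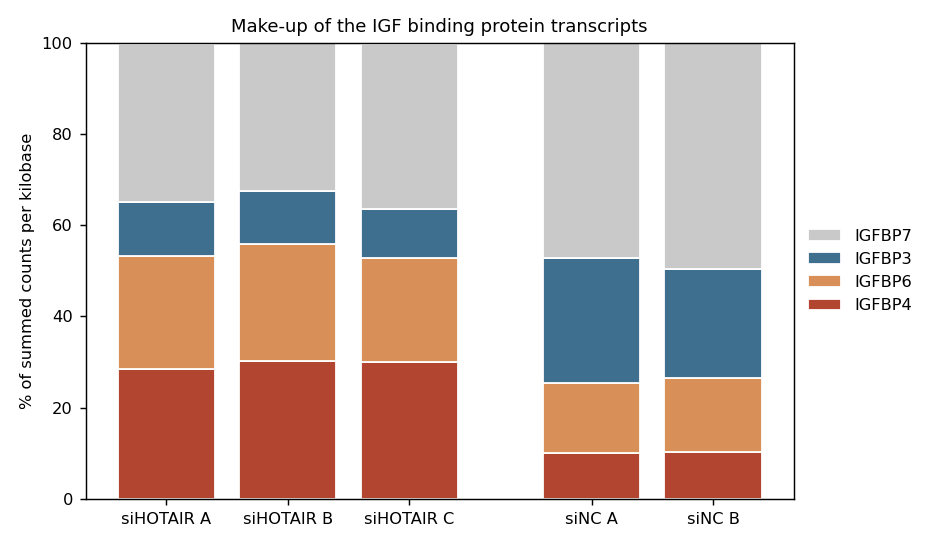
Share of each binding protein in the summed normalized counts per kilobase (vertical axis, %) of each recovered library, with 3 siHOTAIR libraries at the left and 2 siNC libraries at the right; IGFBP1 and IGFBP5, each at most 0.139%, are too small to see. IGFBP4 takes 28.5% to 30.2% in siHOTAIR and 10.0% to 10.2% in siNC, and IGFBP3 10.9% to 11.7% in siHOTAIR and 23.7% to 27.4% in siNC.

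IGF1, the other IGF ligand gene, had 1 read in siHOTAIR A and none in the other libraries, and INS was not analysed here. IGFALS, the partner that holds IGF and IGFBP3 in a ternary complex in serum, averaged 22.2 ± 8.50 normalized counts in siHOTAIR and 12.7 ± 2.60 in siNC libraries, with a log2 fold change of 0.69 ± 0.415 (SE) in the authors' deposited table that did not pass (adjusted p = 0.182). H19, the noncoding RNA gene next to IGF2 on the imprinted locus, was very abundant, with a mean of 93450 normalized counts in the authors' deposited table and a log2 fold change of 0.12 ± 0.0875 (SE) that did not pass (adjusted p = 0.293). Its reads were not recovered, since the mean is too high.

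The wider pathway was described through 8 lists of 78 genes, chosen with earlier results of these data known. Of the 78, 73 were matched and 69 had an adjusted p in the authors' deposited table, where 15 rose, 12 fell and 42 did not pass. These 27 calls among 69 genes lay close to the share of 40.4% called among all tested features. The median log2 fold change of the 69 was 0.04, against 0.007 for all features.

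In the list of genes for binding protein proteolysis and prohormone processing, which holds the convertases FURIN and PCSK6 too, 2 of 8 rose and 2 fell. Among all tested features 20.0% rose and 20.4% fell. STC1 and STC2 are stanniocalcins, which inhibit PAPPA, the protease that cuts IGFBP4. STC1 had 38.1, 37.5 and 36.0 normalized counts in siHOTAIR libraries, against 101 and 105 in siNC libraries, with a log2 fold change of -1.41 ± 0.235 (SE) in the authors' deposited table (adjusted p = 2.28e-08). STC2 fell less, by 0.26 ± 0.0927 on that scale in the authors' deposited table (adjusted p = 0.0157), and limma without siNC A gave an adjusted p of 0.139. PAPPA itself, at 228 ± 7.47 normalized counts in siHOTAIR and 243 ± 3.60 in siNC, did not pass in the authors' deposited table (log2 fold change -0.09 ± 0.131, adjusted p = 0.638), and is named after its values were seen because it cuts IGFBP4. ADAMTS1, a secreted metalloprotease, and PRSS23, a serine protease, rose with log2 fold changes of 0.76 and 0.64 in the authors' deposited table.

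Of 9 receptor adaptors, 3 rose and 1 fell, beside 20.0% rising and 20.4% falling among all tested features. Besides IRS2, SH2B1 rose, an adaptor that strengthens insulin and IGF1 receptor signalling in mice and cultured cells, with 1076, 1148 and 1113 normalized counts in siHOTAIR libraries, against 735 and 710 in siNC libraries. CRK rose and SH2B2 fell, with log2 fold changes of 0.39 and -0.53 in the authors' deposited table. SHC1, the adaptor that leads from the receptors to RAS, overlapped between the groups at 2733 ± 61.3 normalized counts in siHOTAIR and 2759 ± 141 in siNC, and is likewise named after its values were seen.

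Among 9 genes that damp receptor signals, 3 rose and 2 fell, beside 20.0% rising and 20.4% falling among all tested features. PTPN1, the phosphatase that removes phosphates from the insulin receptor, fell (log2 fold change -0.55, adjusted p = 3.84e-07 in the authors' deposited table), as did the ubiquitin ligase NEDD4 (-0.47 on that scale). SOCS3, an inhibitor of cytokine and insulin signalling, had 1827, 1815 and 1841 normalized counts in siHOTAIR libraries, against 1446 and 1386 in siNC libraries. GRB10, which binds IGF1R and INSR and restrains both, had 72.8, 57.8 and 62.0 in siHOTAIR and 32.7 and 37.0 in siNC libraries. SOCS3 and GRB10 rose in the authors' deposited table, with log2 fold changes of 0.37 and 0.85.

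From PI3-kinase to AKT, 4 of 13 rose and 1 fell, beside 20.0% rising and 20.4% falling among all tested features. AKT1, the kinase at the centre of this branch, had 1986, 1996 and 2084 normalized counts in siHOTAIR libraries, against 1210 and 1256 in siNC libraries, and rose in the authors' deposited table (0.71 ± 0.0703 on the log2 scale, adjusted p = 2.19e-22). AKT2 also rose in the authors' deposited table, with a log2 fold change of 0.40. PHLPP2, a phosphatase that acts on AKT, was lower, with 241, 237 and 257 normalized counts in siHOTAIR libraries, against 450 and 421 in siNC libraries. In the authors' deposited table PHLPP2 had a log2 fold change of -0.83. The kinases AKT1 and AKT2 thus changed the same way, and PHLPP2 the other way.

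Below AKT, 1 of 14 genes of the mTOR, GSK3 and FOXO list rose and 4 fell. The shares among all tested features were 20.0% rising and 20.4% falling. RPTOR, the scaffold of mTOR complex 1, had 731, 808 and 918 normalized counts in siHOTAIR libraries, against 1299 and 1254 in siNC libraries, and its log2 fold change in the authors' deposited table was -0.64 ± 0.0918 (adjusted p = 5.62e-11). MTOR and TSC1 fell by 0.35 and 0.36 on that scale in the authors' deposited table. FOXO4, one of the transcription factors that AKT keeps out of the nucleus, rose in the authors' deposited table with a log2 fold change of 0.69.

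In the list on control of IGF transcripts, 1 of 6 rose and 1 fell. In that on mannose-6-phosphate sorting, the lysosomal pathway that IGF2R serves, 1 of 7 rose. Both lists stand beside 20.0% rising and 20.4% falling among all tested features. IGF2BP2, an RNA-binding protein named for its binding to IGF2 messages, had 321, 380 and 346 normalized counts in siHOTAIR libraries, against 485 and 519 in siNC libraries, and its log2 fold change was -0.52 in the authors' deposited table. HMGA2, a chromatin protein that raises IGF2BP2 in mouse muscle, rose at low level (8.09 ± 4.16 normalized counts in siHOTAIR, 1.40 ± 0.392 in siNC; adjusted p = 0.0416 in the authors' deposited table). This call is not made by limma without siHOTAIR A (adjusted p = 0.0771), without siNC A (0.113) or without siNC B (0.105).

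**Figure D5:**
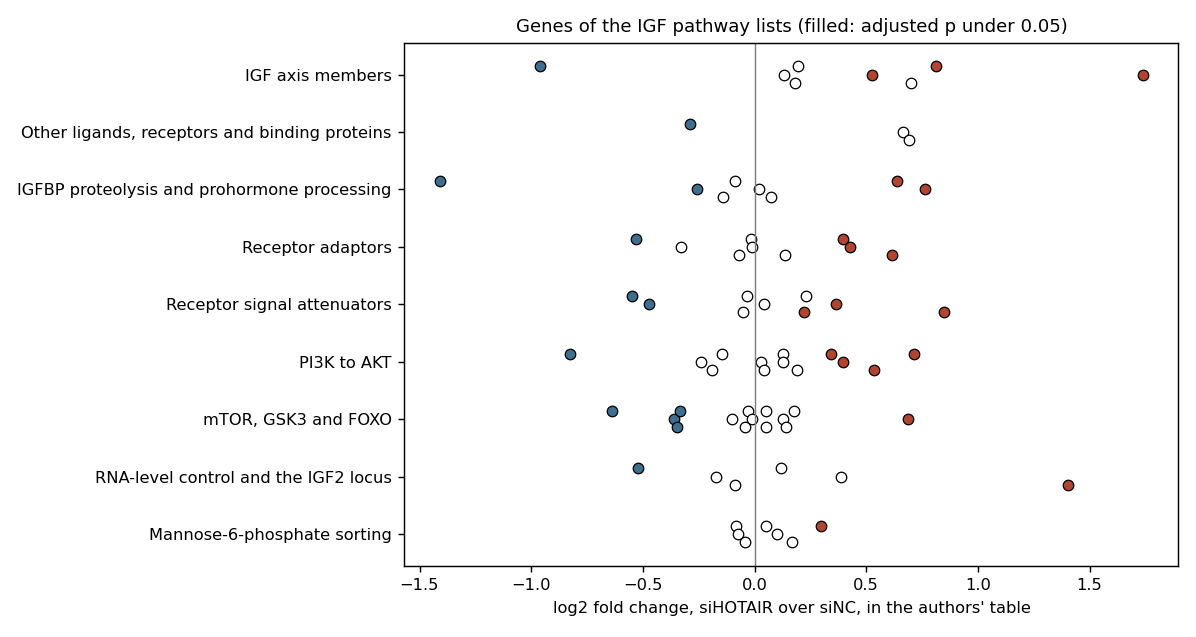
Log2 fold changes of siHOTAIR over siNC (horizontal axis) in the authors' deposited table for the IGF axis members and the 8 pathway lists (rows), 1 point per gene with an adjusted p; filled points passed an adjusted p under 0.05, red for higher and blue for lower in siHOTAIR. Filled points stand on both sides of 0 in most rows, with IGFBP4 at 1.74 the farthest to the right.

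Markers of other cell types were read beside these results, because the sources of binding proteins differ between cell types. The 6 matched fibroblast markers of 8 listed summed to 2151, 2315 and 2546 normalized counts in siHOTAIR libraries, against 1242 and 1243 in siNC libraries. COL1A1, a chain of type I collagen, made up most of that sum, with 1755, 1929 and 2144 in siHOTAIR libraries and 1051 and 1078 in siNC libraries. Beside 20.0% rising and 20.4% falling among all tested features, COL1A1, PDGFRB and DCN rose in the authors' deposited table. They were 3 of 5 fibroblast markers with an adjusted p, and 0 fell. The other 3 matched markers did not separate the groups. Of these, COL3A1 averaged 25.9 ± 3.11 in siHOTAIR and 27.8 ± 9.76 in siNC libraries (adjusted p = 0.904 in the authors' deposited table). THY1 averaged 13.9 ± 8.29 in siHOTAIR and 7.13 ± 0.575 in siNC, and LUM 3.76 ± 2.94 in siHOTAIR and 1.96 ± 0.40 in siNC. COL1A1, PDGFRB and DCN thus moved with IGFBP4, IGFBP6 and IGF1R and against IGFBP3, and the part of fibroblast transcripts in these changes was not tested.

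Endothelial markers summed to between 87.8 and 118 normalized counts in siHOTAIR and to 72.0 and 74.0 in siNC libraries over 3 matched of 4 listed. CDH5 made up most of that sum and did not pass in the authors' deposited table (adjusted p = 0.0675), VWF rose at a few reads per library, and PECAM1 overlapped between the groups. Leukocyte markers, also 3 of 4, summed to between 127 and 154 in siHOTAIR and to 184 and 204 in siNC libraries. CD68 made up most of that sum and fell in the authors' deposited table, while LYZ was higher in every siHOTAIR library (7.11 ± 2.20 in siHOTAIR, 2.52 ± 1.19 in siNC) without passing (adjusted p = 0.197 in the authors' deposited table), and CD14 overlapped. Among 3 endothelial markers with an adjusted p, 1 rose and 0 fell, and among 3 leukocyte markers 0 rose and 1 fell. The shares among all tested features were 20.0% rising and 20.4% falling. The part of endothelial cells and leukocytes was likewise not tested.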

How the data were processed

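Per the submitters' processing notes, reads were counted with HTSeq 0.6.1 on hg19 and compared with DESeq and DESeq2. The authors' deposited table gives, per feature, a mean in normalized counts (a signal averaged over libraries), a log2 fold change (shrunken toward 0 where reads are few) with its SE, a Wald score, a p-value and an adjusted p-value, and a second deposited table adds a word for called features. Features were matched to symbols by gene ID (19108) or transcript (386), and 95 were unmatched. Whole reads per library were recovered from the digits of the means and, above a mean of 110, by requiring the deposited log2 fold change to be met within 1e-07 (Python 3.11.15, sympy 1.14.0). For 60 features with means under 110 that were not used to set the prior, the fold changes computed from recovered reads were compared with the deposited ones. They differed by at most 4.76e-08. Above a mean of 110 the match itself picked the reads, so this check does not cover those features. Of simulated features, with means up to 3000, 290 of 290 were recovered. The side of each library was taken from the sign of the fold changes of single-read features. The recovered features hold 57.9% of the summed means. The test of the report is the authors' DESeq2 test with its adjusted p, and limma 3.58.1 (voom, at least 10 reads in all) on the recovered reads was an alternative added after the data were seen. With 3 against 2 libraries an exact 2-sided rank-sum test cannot give a p below 0.2, so none was used. Genes of the pathway lists were named by smallest p, up to 4 called per list, and some that the rule names are not reported here. The members and lists were chosen with earlier results of these data known. No protein sequences were compared.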

Additional observations from a re-analysis of the deposited data

How the results depend on the processing

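The 4 calls among the 8 measured genes (3 higher, 1 lower) were also made at an adjusted p under 0.01, with Holm adjustment, with adjustment over all features, after recentring, and by limma on the recovered reads with all libraries or without any 1. With the added demand of a 2-fold change and a stricter p, 1 gene was called, 1 higher and 0 lower. Leaving out 1 library, the log2 ratio of group means ran from 0.46 to 0.61 for IGF1R, from 0.045 to 0.41 for IRS1, from 1.65 to 1.84 for IGFBP4 and from 0.57 to 2.47 for IGFBP5 (lowest by limma 0.52), with no change of sign. The highest value of IGFBP5 was without siNC A, where siNC was 1 library of 1 read. The pathway lists gave 27 calls, 25 at an adjusted p under 0.01, 28 after recentring, and 21 to 27 by limma without 1 library. limma called 6618 of 15151 features and 5577 of the 5614 that the authors called among features tested both ways. Values without 1 siNC library assume that the lone library varies like the others. No paired analysis was possible because the recovered libraries carry no replicate numbers. Depth limits IGFBP5, IGFBP1, IGF1 and IRS1.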
